A study of Mus musculus with 12 samples.

Results

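The miR-181 family in murine serum was measured here by 3 mature 5p miRNAs, miR-181a-5p (MIMAT0000210), miR-181b-5p (MIMAT0000673) and miR-181c-5p (MIMAT0000674). The members were chosen by name, and they were 3 of the 874 mature miRNAs listed in the mouse count tables. All 3 had counts in all 12 libraries. The sera came from 3 female athymic immunodeficient NCr nude mice (mice 1046, 1047 and 1069), aged 4 to 6 weeks when the tumour model was set up. Each mouse was bled 1 week before and 2 weeks after SH-SY5Y cells, an established human neuroblastoma line, were implanted beneath the renal capsule. RNA from 50 µl of each of the 6 sera was split into a tRNA-halves depleted and an undepleted aliquot, which gave 4 groups of 3 libraries. In the depletion, biotinylated DNA probes bind 5′ tRNA fragments, the 5′ parts of tRNAs cut in the anticodon loop, and streptavidin beads remove them. No mock-injected group was analysed here, so the tumour, the implantation surgery and the time that passed between the bleeds cannot be told apart. The tumour model is 1 human cell line in mice that lack a normal thymus and its T cells.

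MicroRNAs of the miR-181 family guide silencing complexes to messenger RNAs that pair with the seed, the bases near the 5′ end. The family is known for its high level in thymus, lymphoid cells and brain, and miR-181a is known for tuning the sensitivity of the T cell receptor during T cell development. Serum holds miRNAs released by many tissues, so more releasing cells and more miRNA released per cell cannot be told apart.

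The mature sequences are shown because the members share 1 seed, while only miR-181b-5p was called lower after the depletion. Whether the sequence differences bear on this was not tested. They are written 5′ to 3′ as RefSeq lists them for the mouse (assembly GRCm38.p6), with the seed (bases 2 to 8) in capitals. All 3 members matched an entry by miRNA name. A further 5p member of the family, miR-181d-5p, is shown for its sequence alone. Its entry among the counts could not be identified by name, so no level is given under its name.
miR-181a-5p: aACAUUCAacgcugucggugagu
miR-181b-5p: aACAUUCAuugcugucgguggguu
miR-181c-5p: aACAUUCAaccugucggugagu
miR-181d-5p: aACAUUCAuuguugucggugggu

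The seed ACAUUCA was held by these 4 of 1679 mature mouse names in that table. Outside the seed, counting from the 5′ end of miR-181a-5p, miR-181b-5p differed from miR-181a-5p by A9U, C10U and A21G, and it was 1 base longer at its 3′ end. miR-181c-5p was 1 base shorter, as the base at position 11 of miR-181a-5p had no counterpart. miR-181d-5p differed from miR-181b-5p by C12U and by the lack of the last base.

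The 5p members came from 3 hairpin clusters, given here on GRCm38. On chromosome 1, Mir181a-1 (chr1:137966455-137966541, plus strand) lay 97 bases from Mir181b-1 (chr1:137966639-137966718, plus strand), and both overlapped an exon of the long non-coding RNA A430106G13Rik. On chromosome 2, Mir181a-2 (chr2:38852735-38852810, plus strand) lay 1019 bases from Mir181b-2 (chr2:38853830-38853918, plus strand), and both were antisense to an intron of Nr6a1, the gene of a nuclear receptor. On chromosome 8, Mir181d (chr8:84178716-84178787, minus strand) and Mir181c (chr8:84178873-84178961, minus strand) were 85 bases apart in an intron of Nanos3, a gene needed for germ cells. The mature miR-181a-5p and miR-181b-5p each had 2 hairpins and miR-181c-5p had 1. How the authors counted a read that matches both hairpins is not given in the sources used here, and it bears on the levels of the members relative to each other, not on a comparison of 1 member between libraries.

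Depth differed between the arms. The depleted libraries held 938706 to 2271549 mouse miRNA counts and the undepleted libraries 21235 to 97183. Levels are therefore given as counts per 1000000 mouse miRNA counts of the same library (CPM). The shallowest was the undepleted library of mouse 1069 before injection, in which 1 count was worth 47.1 CPM. The mature members are 22 to 24 bases long, so no correction for length was made.

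miR-181a-5p was the most abundant member, miR-181c-5p followed and miR-181b-5p was the rarest in each of the 12 libraries. By mean level, miR-181a-5p ranked 25 among 442 miRNAs listed in the undepleted arm and 23 among 861 in the depleted arm. miR-181c-5p ranked 32 and 37. miR-181b-5p ranked 72 in the undepleted arm and 102 in the depleted arm. The levels of miR-181a-5p, from 5057 to 8618 CPM, did not overlap with those of miR-181c-5p, from 2716 to 4928 CPM. The counts of miR-181a-5p were 1.51 to 3.05 times those of miR-181c-5p.

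miR-181a-5p, in undepleted libraries before injection, was at 5196 CPM in mouse 1046, 5478 in mouse 1047 and 8618 in mouse 1069. After injection the same mice had 6883, 6179 and 6897 CPM. In the depleted aliquots the values were 5057, 6186 and 8608 CPM before injection and 7475, 7019 and 6817 CPM after it. Mouse 1069 stood above the other mice before injection in both aliquots, and the groups overlapped.

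miR-181c-5p, in undepleted libraries, was at 2953, 3111 and 2826 CPM before injection in mice 1046, 1047 and 1069, and at 4564, 3907 and 3034 after it. In the depleted aliquots it was at 2716, 4076 and 2875 CPM before and at 4928, 3766 and 3089 after injection. The lowest sample after injection lay within the range before it in both arms, and mouse 1046 had the highest level after injection in both.

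miR-181b-5p, in undepleted libraries, was at 432, 533 and 848 CPM before injection in mice 1046, 1047 and 1069 (42, 48 and 18 counts). After injection it was at 1159, 962 and 1072 CPM (79, 50 and 53 counts). In the depleted aliquots it was at 213, 252 and 375 CPM before (287, 458 and 352 counts) and at 420, 331 and 446 CPM after injection (748, 577 and 1012 counts). The depleted aliquot was the lower one of each serum, and all undepleted libraries after injection were above all those before.

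**Figure D1:**
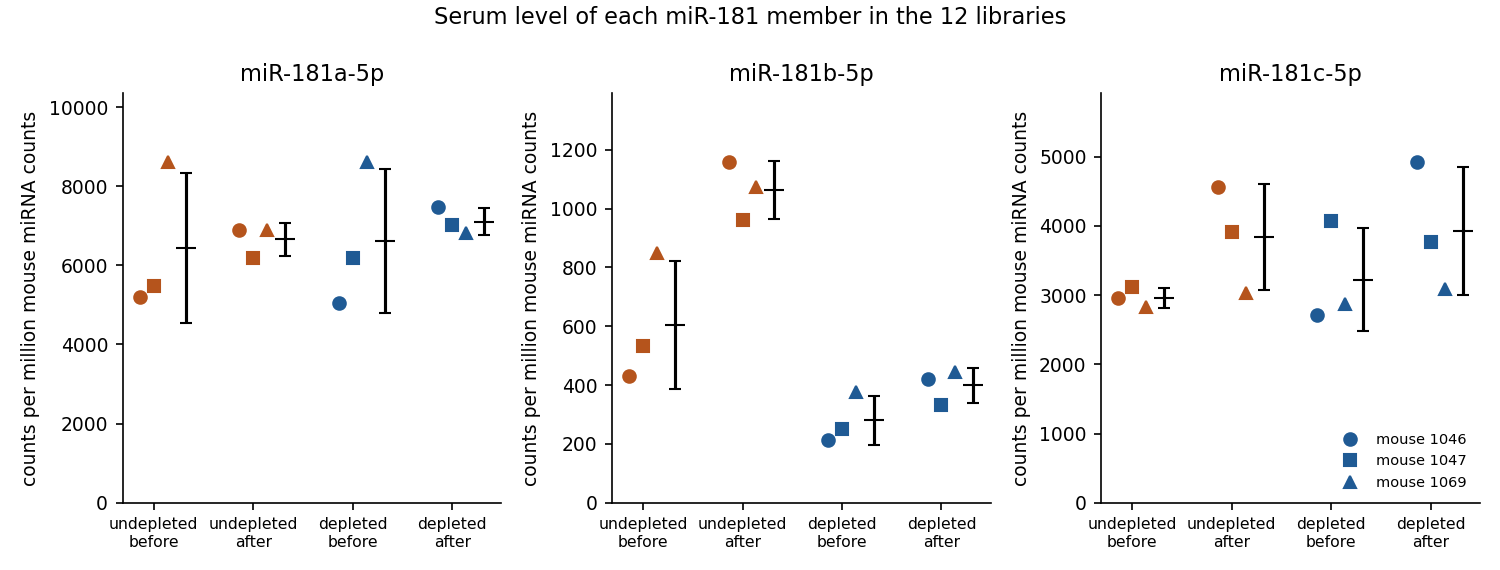
CPM of mouse miRNA counts (y axes from 0, a separate scale for each member) of miR-181a-5p, miR-181b-5p and miR-181c-5p in undepleted and depleted libraries before and after injection (x axis). Each point is a library, its shape the mouse, and bars give mean ± SD (n = 3). miR-181b-5p sits between 432 and 1159 CPM in undepleted libraries and between 213 and 446 in depleted ones, and the levels of all 3 members overlap across the arms.

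After the depletion miR-181b-5p was lower, while no change of miR-181a-5p or miR-181c-5p passed the test. In DESeq2, with all 12 libraries, miR-181b-5p was 2.55-fold lower in depleted libraries (log2 fold change -1.35, SE 0.17, adjusted p = 3.27e-13). Its mean was 256 ± 83.3 normalised counts in undepleted and 96.0 ± 21.2 in depleted libraries (SD, n = 6 each). A miRNA was called changed at an adjusted p under 0.05 and a fold change of at least 2. By that rule 1 of 3 members was called, against 32 of 383 miRNAs tested (8.36%), and 13 of 383 (3.39%) were called lower. The call held under each of the 9 alternative settings, with log2 fold changes from -1.39 to -1.10.

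The other members had estimates close to 0 in the same fit. The log2 fold change of miR-181a-5p was -0.04 (95% interval -0.24 to 0.16, DESeq2 adjusted p = 0.883), and that of miR-181c-5p was -0.04 (95% interval -0.41 to 0.33, adjusted p = 0.920). Both intervals leave out a 2-fold change in either direction. These estimates turned positive with TMM factors (0.23 for miR-181a-5p, 0.22 for miR-181c-5p), which raised the median of all miRNAs tested from -0.04 to 0.20, while miR-181b-5p stayed lower (-1.10, adjusted p = 1.26e-08).

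The aliquots of each serum gave the same picture one by one. The log2 ratio of miR-181b-5p in CPM, depleted over undepleted, was -1.02 in mouse 1046, -1.08 in mouse 1047 and -1.18 in mouse 1069 before injection. After injection the log2 ratios were -1.47, -1.54 and -1.27. The member was thus lower in 6 of 6 sera, by 2.03-fold at the least and 2.90-fold at the most. Of the 383 miRNAs tested, 19 (4.96%) were lower in CPM in all 6 sera. The log2 ratios of miR-181a-5p ran from -0.04 to 0.18 and those of miR-181c-5p from -0.12 to 0.39, on both sides of 0. Across sera, the levels of a member in the 2 arms overlapped for all 3 members, including miR-181b-5p (at most 446 CPM in the depleted, at least 432 in the undepleted arm), where 8.88% of miRNAs tested did not overlap. The sum of the 3 members was at 10775 ± 1632 CPM in undepleted and 10774 ± 1644 in depleted libraries (SD, n = 6 each).

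**Figure D2:**
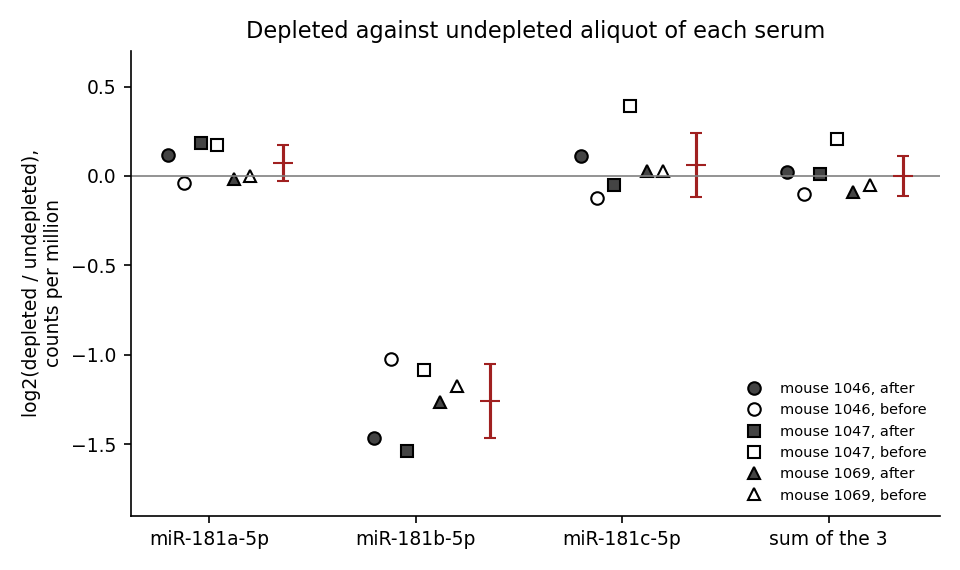
Log2 ratio of CPM, depleted over undepleted aliquot of the same serum (y axis), for each member and the sum of the 3 (x axis). Points are the 6 sera, open before and filled after injection, with the shape giving the mouse, and bars are mean ± SD. The 6 sera lie between -1.54 and -1.02 for miR-181b-5p and around 0 for the other members.

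A ratio of 2 members within a library does not depend on the scaling of libraries, so the difference between members was also tested in that form, a measure chosen after the values were seen. In undepleted libraries there were 10.2 to 12.0 counts of miR-181a-5p for each count of miR-181b-5p before injection and 5.94 to 6.43 after. In depleted libraries there were 23.0 to 24.6 before and 15.3 to 21.2 after. The ratio of miR-181b-5p to miR-181a-5p was 2.51-fold lower in the depleted aliquots (log2 difference -1.33, lower in 6 of 6 sera, two-sided exact sign-flip permutation p = 0.03125, the smallest that 6 pairs allow, Benjamini-Hochberg adjusted p = 0.188 over 6 ratio tests). The ratio of miR-181c-5p to miR-181a-5p differed by -0.0072 on the log2 scale (lower in 3 of 6 sera, exact permutation p = 0.875). These tests between the arms, and those of the shares, took the 6 sera as independent, although they came from 3 mice. With the mouse as the unit, an exact sign-flip test over 3 pairs cannot give a p below 0.25.

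As a share of the summed counts of the 3 members, miR-181b-5p made up 7.57% ± 1.92 in undepleted and 3.13% ± 0.66 in depleted libraries (SD, n = 6 each, exact sign-flip permutation p = 0.03125, adjusted p = 0.281 over 9 share tests). The lowest undepleted library, mouse 1046 before injection, had 5.04% (95% Wilson interval 3.75 to 6.74%), and the highest depleted library, mouse 1069 after injection, had 4.30% (4.05 to 4.57%). The shares of the arms did not overlap, whereas the Wilson intervals of these 2 libraries did. The intervals cover counting error only, as PCR copies were not told apart. The share of miR-181a-5p was 60.7% ± 5.53 in undepleted and 63.7% ± 5.23 in depleted libraries, and that of miR-181c-5p was 31.8% ± 5.29 and 33.2% ± 5.49.

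**Figure D3:**
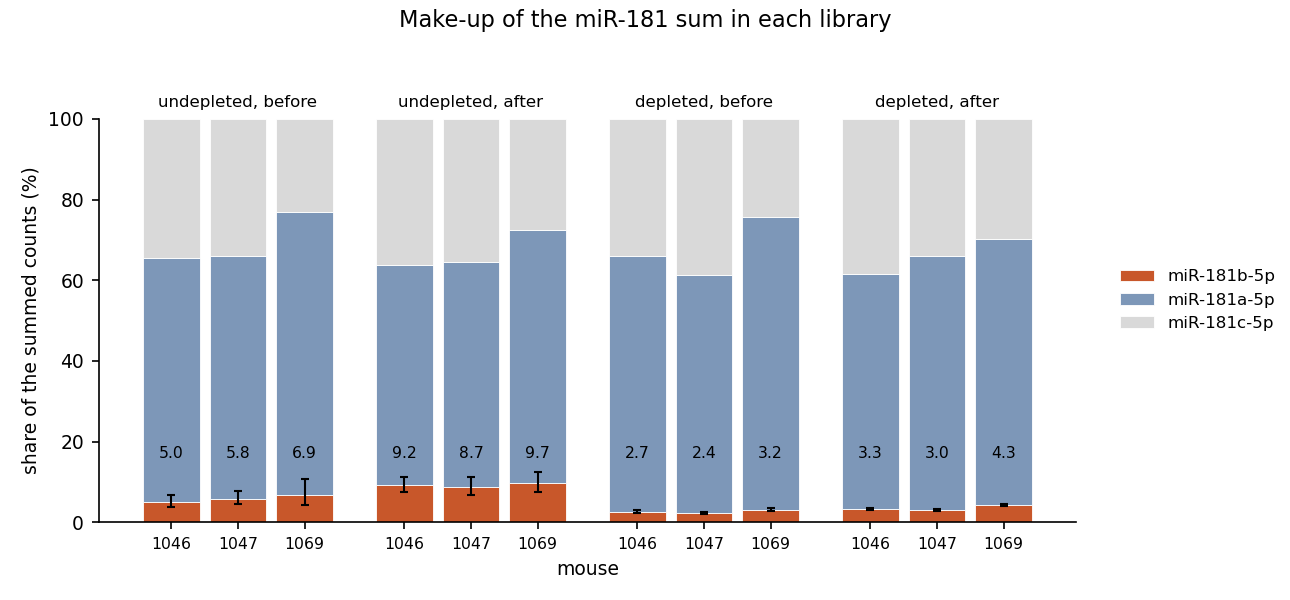
Share of the summed counts of the 3 members (y axis, percent) in each of the 12 libraries, by mouse (x axis) and group. Colours are the members, numbers give the share of miR-181b-5p and bars its 95% Wilson interval. The share of miR-181b-5p is 2.39 to 4.30% in depleted and 5.04 to 9.74% in undepleted libraries.

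After injection, none of the 3 members was called changed in either arm. In the undepleted arm, the highest estimate was that of miR-181b-5p, with a mean of 604 ± 217 CPM before and 1065 ± 98.7 after injection (SD, n = 3 each). It was higher in 3 of 3 mice, by 2.68-fold in mouse 1046, 1.805-fold in mouse 1047 and 1.26-fold in mouse 1069. Its groups did not overlap, as was the case for 45.4% of the 108 miRNAs tested there. The DESeq2 log2 fold change was 0.70 (SE 0.33, 95% interval 0.05 to 1.35, adjusted p = 0.122). Over the alternative settings the adjusted p ran from 0.0550 to 0.998, and none passed the threshold. The log2 fold change was 0.47 without mouse 1046 (DESeq2 adjusted p = 0.862), 0.76 without mouse 1047 (adjusted p = 0.998) and 0.72 without mouse 1069 (adjusted p = 0.174), whose library before injection was the shallowest. In the same fit miR-181a-5p had a log2 fold change of -0.01 (SE 0.22, adjusted p = 0.984) and miR-181c-5p one of 0.23 (SE 0.26, adjusted p = 0.615). The share of miRNAs called in that arm was 11.1% (12 of 108).

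In the depleted arm, which held more counts, no member was called either. miR-181b-5p was higher in CPM in each of the 3 mice, by 1.97-fold in mouse 1046, 1.32-fold in mouse 1047 and 1.19-fold in mouse 1069, but its groups overlapped (280 ± 84.7 before, 399 ± 59.9 after). Its DESeq2 log2 fold change was 0.25 (SE 0.27, adjusted p = 0.553), and it was 0.11 without mouse 1046 and 0.41 without mouse 1047. miR-181a-5p was at 6617 ± 1814 before and 7103 ± 337 CPM after injection, with a log2 fold change of -0.14 (SE 0.24, adjusted p = 0.743). miR-181c-5p was at 3222 ± 743 and 3928 ± 930 CPM, with a log2 fold change of -0.02 (SE 0.29, adjusted p = 0.965). With the library totals as size factors, the estimates of miR-181a-5p, miR-181b-5p and miR-181c-5p were 0.10, 0.48 and 0.27 (DESeq2 adjusted p = 0.848, 0.268 and 0.584), and the median of all miRNAs tested moved from -0.09 to 0.14. Of 310 miRNAs tested in this arm, 33 (10.6%) were called and 39.4% did not overlap between groups, while 0 of 3 members did either.

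The share of miR-181b-5p in the sum of the 3 was higher after injection in 3 of 3 mice in both arms. In undepleted libraries it was 5.93% ± 0.93 before and 9.22% ± 0.52 after (SD over 3 mice, exact permutation p = 0.10, the smallest that 3 against 3 allows, adjusted p = 0.30). In depleted libraries it was 2.74% ± 0.39 and 3.52% ± 0.69 (exact permutation p = 0.20, adjusted p = 0.36). These tests did not use the pairing of libraries by mouse. Paired by mouse, the exact sign-flip permutation p was 0.25 in both arms, the smallest that 3 pairs allow. This design cannot reach p under 0.05 for a single share. The summed level of the 3 members was 9998 ± 2004 CPM before and 11553 ± 913 after injection in undepleted libraries, and 10119 ± 1966 and 11430 ± 1265 in depleted ones, and these groups overlapped.

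Whether the depletion altered the comparison of after with before was tested as an interaction of time point and depletion. For miR-181b-5p the log2 ratio of the ratios was -0.46 (SE 0.35, DESeq2 adjusted p = 0.998). The 3 sera after injection had lower depletion ratios (-1.54 to -1.27) than the 3 before it (-1.18 to -1.02), but the interaction did not pass the test. It was -0.06 (SE 0.22) for miR-181a-5p and -0.18 (SE 0.40) for miR-181c-5p, with an adjusted p of 0.998 for both in DESeq2. Of all 874 miRNAs, 0 (0%) were called by DESeq2 or by edgeR, and 3 had an unadjusted DESeq2 p under 0.05.

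**Figure D4:**
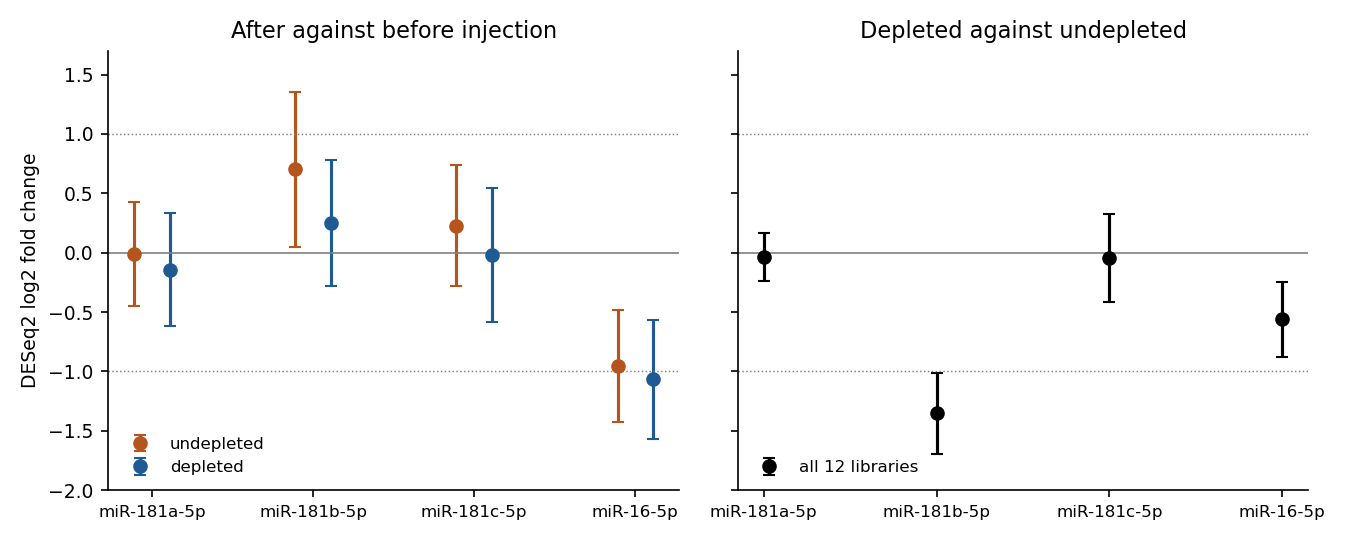
DESeq2 log2 fold changes (y axis) of the 3 members and of miR-16-5p (x axis), after against before injection in each arm on the left and depleted against undepleted on the right. Points are estimates, bars 95% intervals and dotted lines mark a 2-fold change. The interval of miR-181b-5p lies wholly below -1 for the depletion, and the intervals of miR-181a-5p and miR-181c-5p span 0 in all 3 comparisons.

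miR-16-5p (MIMAT0000527), which is abundant in red cells, had lower values after injection in both arms and in the depleted aliquots. Its level was 144761 to 178076 CPM in undepleted libraries before injection and 71416 to 103728 after it. In depleted libraries it was 108496 to 125973 CPM before and 56241 to 77115 after. Its DESeq2 log2 fold change after injection was -0.95 (adjusted p = 0.000907) in the undepleted and -1.07 (adjusted p = 0.000882) in the depleted arm, and it was -0.56 (adjusted p = 0.00525) for the depletion. In these 3 fits miR-16-5p reached the 2-fold rule after injection in the depleted arm alone, and that call was lost without mouse 1047 (-0.87, DESeq2 adjusted p = 0.119) and with library totals (-0.81, under 2-fold). Without mouse 1047 the undepleted arm gave -0.76 (DESeq2 adjusted p = 0.960), and with TMM factors the depletion gave -0.29 (adjusted p = 0.380). Of 5 red cell miRNAs listed as markers, it was the only one whose accession could be matched to a name, and its part in the values of the miR-181 members was not tested.

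The same reads were also counted against human miRNAs. The human entries whose counts were nearest to those of the members were MIMAT0000256 for miR-181a-5p and MIMAT0000258 for miR-181c-5p, with the same counts in all 12 libraries (69496 and 37425 in sum). For miR-181b-5p it was MIMAT0000257, which differed by 1 count of 3724. Mouse and human origin of these molecules therefore cannot be told apart from the counts. Fitted with the human table in DESeq2, the log2 fold changes after injection were 0.02, 0.74 and 0.26 for the counterparts of miR-181a-5p, miR-181b-5p and miR-181c-5p in the undepleted arm, with adjusted p-values of 0.963, 0.0716 and 0.544. In the depleted arm they were -0.05, 0.33 and 0.05, with adjusted p-values of 0.956, 0.498 and 0.961.

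The members varied differently from library to library. Over the 12 libraries, with the mean of each arm removed, log2 normalised counts of miR-181a-5p and miR-181b-5p had a Pearson r of 0.54, those of miR-181b-5p and miR-181c-5p one of 0.24, and those of miR-181a-5p and miR-181c-5p one of -0.11. The libraries share mice, sera and scaling, so these coefficients are descriptions. Among 104 other miRNAs with at least 50 normalised counts in each arm on average, the entries most like the sum of the 3 members were MIMAT0004651 (r = 0.64), MIMAT0000237 (0.60), MIMAT0000130 (0.59), MIMAT0004324 (0.57) and MIMAT0000379 (0.55), which the files give without names. Only the 3 members were left out of this search, and whether any of these entries is a further member of the miR-181 family was not determined. MIMAT0000130 was also the entry most like miR-181b-5p (r = 0.86), MIMAT0003782 was most like miR-181a-5p (0.75) and MIMAT0000515 most like miR-181c-5p (0.83), so a different entry led for each member. MIMAT0004324, singled out after its values were seen, had a mean of 845 CPM before and 1533 CPM after injection in undepleted libraries. In depleted libraries it had 451 and 850 CPM, so its depleted mean was the lower one at both time points. The same held for MIMAT0000130 (1069 and 1596 CPM undepleted, 860 and 1404 depleted). For MIMAT0000237 the depleted mean was the higher one at both (265 and 195 CPM undepleted, 332 and 286 depleted). For MIMAT0004651 and MIMAT0000379 the direction differed between the time points. These means are descriptions without a test.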

How the data were processed

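Small RNA from 12 libraries of murine serum (TruSeq, 15 PCR cycles) was deposited by the authors as raw read counts per mature miRNA, in a mouse and a human table for each library. The authors had trimmed reads with cutadapt 1.8.1 and mapped them with Bowtie 1.1.2 to GRCm38 or GRCh37. A miRNA that was not listed was taken as 0. The tables hold miRBase accessions without names. The members and lists were chosen with earlier results of these data known. Named miRNAs were the 3 members, their human counterparts, miR-16-5p and the 5 entries with the highest Pearson r to the family sum. The most similar entry for each member was added after the data were seen.

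DESeq2 1.42.0 (R 4.3.3) was run on all miRNAs with median-of-ratios size factors, a prior on fold changes, the Wald test and Benjamini-Hochberg adjustment after independent filtering at 0.05. Time points were compared within each arm (3 against 3 libraries), arms over 12 libraries, and the interaction without the prior. edgeR 4.0.16 was an alternative. Shares and ratios were compared by two-sided exact permutation tests (SciPy 1.17.1), by flipping signs within sera for the arms. The DESeq2 code was checked on simulated independent libraries, without the prior, and the permutation code on small sets with known answers. The simulation did not model the pairing of aliquots. The labels tie aliquots to sera and sera to mice. Deviations from group means correlated at 0.60 to 0.75 between aliquots of a serum and at -0.49 to 0.04 between time points of a mouse (107 miRNAs). Blocked fits are given as alternatives.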

Additional observations from a re-analysis of the deposited data

How the results depend on the processing

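Precision was limited by 3 mice and by the 18 to 79 counts of miR-181b-5p in undepleted libraries. Across settings, 0 of the 3 members were called after injection in either arm, and miR-181b-5p was called lower after depletion in all 9. For the depletion, estimates of miR-181a-5p turned to 0.23 (TMM), 0.079 (library totals) and 0.23 (edgeR), and those of miR-181c-5p to 0.22, 0.072 and 0.23. With median-of-ratios scaling over the 12 libraries, the log2 levels of these members differed by -0.045 and -0.052. After injection, library totals gave 0.10 for miR-181a-5p and 0.27 for miR-181c-5p in the depleted arm and 0.065 for miR-181a-5p in the undepleted arm. With the replicate block, miR-181c-5p in the depleted arm was at 0.0046, and for miR-181b-5p the depletion gave -1.37 (DESeq2 adjusted p = 1.74e-19) and the undepleted arm 0.66 (adjusted p = 0.348). The block changed no call of a member. Blocked counts of miRNAs called were 26, 11 and 27 for the depleted arm, the undepleted arm and the depletion.

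With 1 mouse left out at a time, the exact permutation p of 0.03125 for the share, ratio and level of miR-181b-5p between the arms became 0.125, the smallest that 4 pairs allow, with the direction kept. The log2 fold change of miR-181b-5p after injection ranged from 0.11 to 0.41 in the depleted and from 0.47 to 0.76 in the undepleted arm. Signs changed among estimates close to 0. In the depleted arm, miR-181c-5p ranged from -0.27 to 0.34 (0.34 without mouse 1047), its share difference from -0.23 to 5.01 percentage points, its log2 ratio to miR-181a-5p from -8.5e-05 to 0.37 and its log2 level from -0.0053 to 0.48. The difference in log2 level of miR-181a-5p ranged from -0.077 to 0.37 there and from -0.074 to 0.29 in the undepleted arm. Its log2 fold change in the undepleted arm ranged from -0.090 to 0.088. On the log2 scale, the family sum ranged from -0.058 to 0.38 after injection in the depleted arm and from -0.055 to 0.034 between the arms. The difference in log2 ratio of miR-181c-5p to miR-181a-5p between the arms ranged from -0.028 to 0.012, and the interaction of miR-181c-5p from -0.37 to 0.058. In the human table, miR-181a-5p ranged from -0.17 to 0.059 (depleted) and -0.042 to 0.11 (undepleted), and miR-181c-5p from -0.19 to 0.41 (depleted). The cause was not tested.

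Numbers of miRNAs called ranged from 11 to 32 in the depleted arm (11 without mouse 1047, 19 without mouse 1069), from 1 to 11 in the undepleted arm (1 without mouse 1047, 7 without mouse 1069) and from 19 to 33 for the depletion (19 without mouse 1046). By adjusted p alone they were 52 against 33, 21 against 12 and 55 against 32. A sum with the other miR-181 5p entry was not run, as the tables give no names.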
